A study of Rattus norvegicus with 18 samples.

Results

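Arginine sits between several enzymes that compete for it, and 10 genes that bring it into the cell, make it, break it down or turn it into nitric oxide were followed here in rat heart transplants and T cells. The rule that chose them is a list of names by function and uses no measured value, though earlier results of these data were known when it was drawn up: the transporters Slc7a1 and Slc7a2, the synthesis enzymes Ass1 and Asl, the arginases Arg1 and Arg2, ornithine decarboxylase (Odc1), and the nitric oxide synthases Nos1, Nos2 and Nos3. They are 10 of the 14217 genes with a probe set of their own on the arrays, and all 10 were measured. Arg1 and Ass1 differed most. In the untreated graft on day 7, Arg1 stood at 7743 intensity units against 1217 and 1247 in the 2 treated grafts of that day, and Ass1 was 11.4 to 18.1 times as high on day 7 as on day 1 in every treatment.

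Cells import arginine through cationic amino acid transporters or rebuild it from citrulline, which argininosuccinate synthase (Ass1) joins to aspartate and argininosuccinate lyase (Asl) then splits into arginine and fumarate. Arginases cut arginine into urea and ornithine, and ornithine decarboxylase makes the polyamine putrescine from ornithine. Nitric oxide synthases use the same arginine and return citrulline, so Ass1 and Asl can refill their substrate. Macrophages are known for both routes: Nos2 is a classical product of inflammatory activation, and Arg1 of alternative activation in rodents, while Nos3 is the enzyme of vascular endothelium.

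Hearts of male Wistar Furth rats (WF, RT1.Au) were placed in the abdomen of ACI (RT1.Aa) recipients, and graft heart tissue and T cells were profiled on 18 Affymetrix arrays. All recipients carried a graft, so no tissue without a transplant was compared. The untreated group had no drug. The cyclosporine group received oral cyclosporine at 10 mg/kg/day from day 0 to day 2, a dose the labels call sub-therapeutic, and the third group received this cyclosporine plus 1 mg/kg of the allochimeric peptide [a1h1/u]-RT1.Aa, injected into the portal vein at transplantation. An injection without peptide was not described for the cyclosporine group. Samples were taken on days 1, 3 and 7, and each tissue, treatment and day has 1 array. The labels give the strain of all samples, T cells included, as Wistar Furth, and do not settle from which organ or host the T cells came. No source says whether an array holds 1 animal or a pool. Because no combination has a second array, the errors below measure the spread between arrays left by each fit, part of which may be technical.

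The deposited values are intensities on a linear scale, and differences are log2 differences of intensity plus 16, with the SE of the limma fit. A gene is called changed where its p-value, adjusted by the Benjamini-Hochberg method over all probe sets tested, is below 0.05, and the share of all tested probe sets called is given as the background. Median intensity was 210 to 231 in heart arrays and 195 to 210 in T cell arrays. A probe set was tested where it exceeded the 40th percentile of its array (135 to 145 units in heart, 126 to 133 in T cells) in at least 3 arrays of the fit. Of the 10 genes, 7 passed in heart and 4 in T cells. Cardiomyocyte markers summed to between 47050 and 67298 units in heart and 371 to 499 in T cells, as the tissue labels state. The T cell arrays also carried markers of other leukocytes. Macrophage markers summed to 24069 to 47169 units there and B cell markers to 6143 to 20888, beside 40482 to 55242 for T cell markers. The part of those cells in the T cell values below was not tested. The untreated day 1 T cell array stood apart: its 7 neutrophil markers summed to 43416 units against 1298 to 3968 in the other 8 T cell arrays. Levels are from bulk RNA, so fewer cells of a type and less RNA per cell cannot be told apart.

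**Figure D1:**
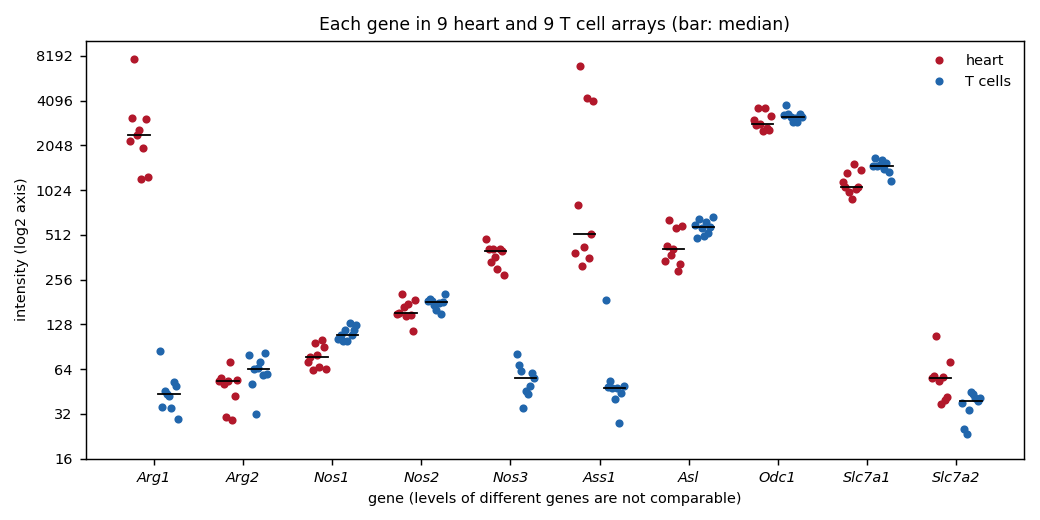
Intensity (log2 axis) of the 10 genes in each of the 9 heart and 9 T cell arrays; each point is 1 array and each bar a median. Medians of Arg1, Ass1 and Nos3 are 2404, 521 and 398 in heart against 43.8, 47.5 and 55.9 in T cells. Odc1 and Slc7a1 overlap between the tissues.

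The sequences just upstream of the start of Ass1, Asl and Nos3 are shown because Ass1 and Asl are the pair that rebuilds arginine and both rose in the graft, while Nos3 is the nitric oxide synthase tested in heart that fell. RefSeq's table (build GRCr8) held promoters of 6 of the 10 genes: Nos1, Nos3, Ass1, Asl, Odc1 and Slc7a1. Each stretch is the 250 bases before the annotated start, read 5′ to 3′ on the gene's strand: Ass1 at chr3:35149480-35149729 on the plus strand, Asl at chr12:32295658-32295907 on the plus strand and Nos3 at chr4:11706582-11706831 on the minus strand. Capitals mark ACGTG or its reverse complement, the core that hypoxia-inducible factors recognise.
Ass1: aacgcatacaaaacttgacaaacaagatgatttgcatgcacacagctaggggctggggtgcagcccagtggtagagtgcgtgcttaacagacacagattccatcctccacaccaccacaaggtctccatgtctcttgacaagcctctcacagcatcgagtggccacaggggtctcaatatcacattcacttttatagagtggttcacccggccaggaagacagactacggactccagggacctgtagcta
Asl: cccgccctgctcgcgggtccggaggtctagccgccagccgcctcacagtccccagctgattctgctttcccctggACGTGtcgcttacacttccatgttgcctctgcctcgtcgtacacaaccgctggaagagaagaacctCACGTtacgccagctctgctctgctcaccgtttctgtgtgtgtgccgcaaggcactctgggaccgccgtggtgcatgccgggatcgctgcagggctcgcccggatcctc
Nos3: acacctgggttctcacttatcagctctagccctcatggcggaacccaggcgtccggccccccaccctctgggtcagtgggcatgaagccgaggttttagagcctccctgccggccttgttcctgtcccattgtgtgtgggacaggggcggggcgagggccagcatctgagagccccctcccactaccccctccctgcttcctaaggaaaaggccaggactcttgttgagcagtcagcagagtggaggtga
The Ass1 stretch has a GC content of 51.2% and 5 CG dinucleotides, equal to the medians over 33469 promoters of this length, whereas the Asl stretch has 64% and 21. ACGTG was found in Asl at 175 to 171 bases before the start on the plus strand and at 109 to 105 on the minus strand, and also once each in Odc1 and Nos1. It occurs in 16.6% of all promoters of this length. The NF-kB consensus (found in 3.54% of all), the interferon gamma activated site TTCNNNGAA (7.67%), its STAT6 form with 1 more spacer base (6.25%) and CACGTG (5.59%) were searched on both strands, ACGTG overlapping CACGTG, and none of these 4 was in any of the 6 windows.

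The largest change over time was in arginine synthesis. Ass1, the first enzyme of the citrulline-to-arginine route, measured 384, 807 and 6958 units on days 1, 3 and 7 in untreated grafts. With cyclosporine it measured 318, 421 and 4280, and with cyclosporine plus peptide 359, 521 and 4087. The 3 day 7 arrays lay far above the 6 earlier ones. The ratio of day 7 to day 1 was 18.1 in untreated grafts, 13.5 with cyclosporine and 11.4 with cyclosporine plus peptide. In the fit of treatment and day, Ass1 rose by 3.75 ± 0.13 log2 units (SE, adjusted p = 9.45e-07) from day 1 to day 7. It already differed between days 1 and 3, by 0.65 ± 0.13 (adjusted p = 0.0116), the single call among the 7 genes for that interval, in which 27.5% of all probe sets were called, 14.6% higher and 12.9% lower.

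Asl, the next enzyme of the route, followed with a smaller difference. Its values were 340, 432 and 646 units in untreated grafts, 377, 413 and 568 with cyclosporine, and 292, 326 and 586 with cyclosporine plus peptide. In each treatment the day 7 array was the highest. Asl rose by 0.81 ± 0.09 from day 1 to day 7 (adjusted p = 0.000146) and by 0.61 ± 0.09 from day 3 to day 7 (adjusted p = 0.000945). A second probe set named Asl gave 0.91 from day 1 to day 7, but RefSeq assigns its accession to Hnrnpab, so it was not used for the gene.

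**Figure D2:**
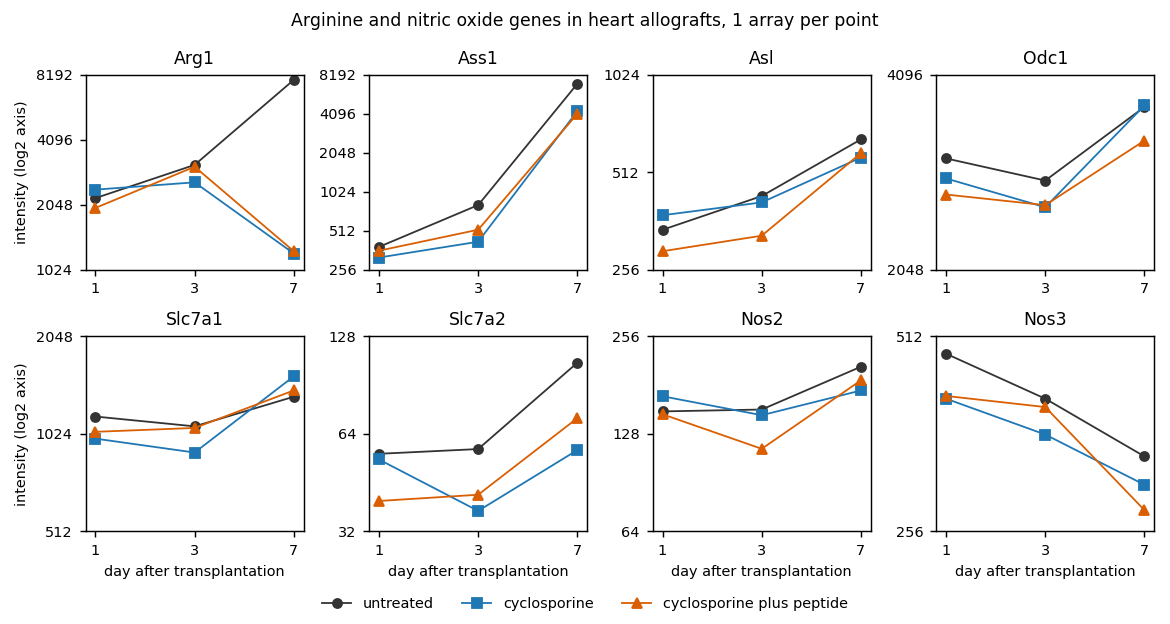
Intensity of 8 of the 10 genes in the graft (log2 axis) against day after transplantation, 1 line per treatment and 1 array per point. Ass1 rises to 4087 to 6958 units on day 7 in all 3 treatments, while Arg1 reaches 7743 in the untreated graft only and lies at 1217 and 1247 in the treated grafts.

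Of the transporters, Slc7a1, the general importer of arginine and lysine, was well measured in the graft and Slc7a2, the form known from activated macrophages, was not. Slc7a1 measured 1157, 1079 and 1332 units in untreated grafts, 989, 896 and 1540 with cyclosporine, and 1038, 1067 and 1393 with cyclosporine plus peptide. The day 7 array was the highest in each treatment. Slc7a1 rose by 0.42 ± 0.10 from day 1 to day 7 (adjusted p = 0.00515). Another probe set of Slc7a1 read 436, 379 and 382 units on day 1 (untreated, cyclosporine, cyclosporine plus peptide). On day 7 it read 506, 612 and 506. A further one, of low signal, read 75.9, 67.8 and 80.6 on day 1 and 73.4, 75.9 and 42.4 on day 7. Slc7a2 ranged from 37 to 106 units in heart, and 0 of 9 arrays exceeded the 40th percentile. Its highest value, 106, was the untreated day 7 graft, and the next was 71.5 in the day 7 graft with cyclosporine plus peptide. Tested without the filter, Slc7a2 differed by 0.50 between days 7 and 1 (adjusted p = 0.027) and by 0.60 between days 7 and 3 (adjusted p = 0.0143), at levels below the 40th percentile of each of the 9 arrays.

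Arg1, the cytosolic arginase, differed from the other 6 genes tested in heart: from day 1 to day 7 it was higher without treatment and lower in both treated groups. Its values were 2196, 3129 and 7743 units on days 1, 3 and 7 without treatment. They were 2404, 2598 and 1217 with cyclosporine and 1978, 3068 and 1247 with cyclosporine plus peptide. On days 1 and 3 the 3 treatments lay close together, and on day 7 the untreated array was the highest of all 9 and both treated arrays the lowest. The untreated graft on day 7 had 3.53 times its day 1 value, while the day 7 value was 0.47 of the day 3 value with cyclosporine and 0.41 with cyclosporine plus peptide. Averaged over treatments these opposite courses cancelled: the day 7 minus day 1 difference of Arg1 was 0.06 ± 0.50 (adjusted p = 0.924). Without the untreated day 7 array the same difference was −0.79 (adjusted p = 0.000569), the day 7 minus day 3 difference −1.21 (adjusted p = 0.000129) and the day 3 minus day 1 difference 0.42 (adjusted p = 0.0151).

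Arg2, the mitochondrial arginase, was not above the filter in any array. Its lowest and highest values were 28.9 and 71.5 units in the graft and 32 and 82.3 in T cells, with 0 of 18 arrays above the 40th percentile. Odc1, the first step from ornithine to polyamines, differed little between arrays: it measured 3041, 2811 and 3651 units in untreated grafts, 2832, 2557 and 3671 with cyclosporine, and 2675, 2576 and 3240 with cyclosporine plus peptide. Each treatment had its highest Odc1 value on day 7. The rise from day 1 to day 7 was 0.30 ± 0.05 (adjusted p = 0.00114) and that from day 3 to day 7 was 0.41 ± 0.05 (adjusted p = 0.000331).

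The nitric oxide synthases differed from one another. Nos3, the endothelial form, measured 481, 410 and 334 units in untreated grafts, 410, 361 and 302 with cyclosporine, and 414, 398 and 276 with cyclosporine plus peptide. It was lowest on day 7 in each treatment. Nos3 fell by 0.49 on the log2 scale from day 1 to day 7 (SE 0.08, adjusted p = 0.000682). The 5 endothelial markers tested fell over the same interval, with a median of −1.13, among them Vwf (von Willebrand factor) by −2.10 ± 0.11 and Pecam1 by −0.90 ± 0.08. The summed endothelial level was 9791 to 10813 units on day 1 and 3861 to 5299 on day 7. The part of these markers in the Nos3 difference was not tested.

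Nos2, the inducible form, had a narrow range in the graft, at a signal near the filter. It measured 150, 152 and 206 units in untreated grafts, 167, 146 and 174 with cyclosporine, and 147, 115 and 187 with cyclosporine plus peptide. These values lay between percentiles 35.6 and 48.8 of their arrays. Nos2 was highest on day 7 in each treatment. The rise from day 3 to day 7 was 0.42 ± 0.11 (adjusted p = 0.0133), but the call was lost without the cyclosporine plus peptide array of day 3 (0.33, adjusted p = 0.065), that of day 7 (0.36, adjusted p = 0.067), or all 3 cyclosporine plus peptide arrays (0.32, adjusted p = 0.123). From day 1 to day 7 Nos2 differed by 0.27 ± 0.11 (adjusted p = 0.0685), which did not pass. Another probe set carries the symbols of both Nos2 and its pseudogene Nos2-ps1 and cannot be assigned to either. It read 79.8, 106 and 271 units in untreated grafts, 51, 96.6 and 116 with cyclosporine, and 22.6, 38.6 and 161 with cyclosporine plus peptide, and was not tested. Nos1, the neuronal form, ranged from 62.8 to 100 units in heart, with 0 of 9 arrays above the 40th percentile. Tested without the filter, it differed by −0.38 between days 7 and 1 (adjusted p = 0.033).

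Between days 1 and 7, then, 4 of the 7 genes tested in heart were called higher (Ass1, Asl, Slc7a1 and Odc1) and 1 lower (Nos3). The background was high: 64.7% of all probe sets were called, 30.9% higher and 33.8% lower, close to the 5 of 7 called here in either direction. Their median difference was 0.30 against −0.02 over all probe sets. Between days 3 and 7, 5 were higher and 1 lower, against a background of 56.4%, 26.9% higher and 29.4% lower. With a straight slope on log2(day) in place of days as factors, Odc1 (adjusted p = 0.115) and Slc7a1 (adjusted p = 0.0852) were not called. Cell type markers moved over the same days. The 9 macrophage markers summed to between 23313 and 25546 units on day 1 and 59221 to 61952 on day 7, and 8 of the 9 were called higher. T cell markers summed to 1037 to 1760 units on day 1 and 15010 to 19208 on day 7. The part of these cells in the rise of Ass1, Asl, Slc7a1 and Odc1 was not tested.

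The question of treatment was addressed in 3 ways. Over all days, 0 of the 7 genes differed between cyclosporine and untreated grafts, between cyclosporine plus peptide and untreated grafts, or between the treatments, by limma at the adjusted threshold. The background was 0% in each, and 2, 3 and 0 of the 7 had an unadjusted p below 0.05. Over all 19737 probe sets tested, 2288, 3156 and 954 did. The Ass1 difference from untreated was −0.62 ± 0.13 with cyclosporine (adjusted p = 0.193) and −0.49 ± 0.13 with cyclosporine plus peptide (adjusted p = 0.209). In both treated groups the Arg1 difference from untreated was −0.93 ± 0.50. The added peptide gave an Arg1 difference from cyclosporine of 0.00 with a 95% interval from −1.16 to 1.16, and an Ass1 difference of 0.13 with an interval from −0.17 to 0.44. These intervals leave room for differences in either direction.

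Within each day, the mean of the cyclosporine array and the cyclosporine plus peptide array was then set against the untreated array. This fit takes the 2 treatments as interchangeable, and each comparison rests on 1 untreated array. On day 1, 0 of the 7 genes were called (background 0%). An unadjusted p below 0.05 was reached by 0 of 7, against 1343 of 19737 probe sets. Arg1 then differed by −0.01 ± 0.13. On day 3, Ass1 was lower in the treated pair by −0.77 ± 0.13 (adjusted p = 0.0278), 1 of 7 against a background of 2.5%, 1.38% higher and 1.12% lower. Without limma's mean-variance trend the Ass1 call was lost (adjusted p = 0.124). Leukocyte markers were also low in the treated grafts of day 3: the macrophage sum was 40797 units untreated against 32857 with cyclosporine and 35097 with cyclosporine plus peptide, with 1 of 9 markers called lower (median −0.33, 6 of 9 with an unadjusted p below 0.05). The neutrophil sum was 13661 units untreated against 6744 and 6577, with 2 of 7 markers called lower and 6 of 7 with an unadjusted p below 0.05, and of 6 T cell markers 0 were called (median −0.72, 5 of 6 with an unadjusted p below 0.05). Over all probe sets, 3820 of 19737 had an unadjusted p below 0.05 on that day. The part of these leukocytes in the Ass1 difference was not tested. Arg1 differed by −0.15 ± 0.13 on that day (adjusted p = 0.571).

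On day 7, Arg1 and Ass1 were lower in the treated pair, 2 of 7 against a background of 4.26%, 2.87% higher and 1.39% lower. The untreated graft had 6.36 times the Arg1 intensity of the cyclosporine graft and 6.21 times that of the graft with cyclosporine plus peptide. The Arg1 difference was −2.64 ± 0.13 (95% interval −2.92 to −2.35, adjusted p = 0.000353). It was −2.65 to −2.58 under 11 alternatives. None of these could leave out the only untreated array of day 7, so they do not show how another untreated graft would read. Ass1 was lower by −0.73 ± 0.13 (adjusted p = 0.0184), a call lost without the cyclosporine array of day 7 (adjusted p = 0.0537) or the cyclosporine plus peptide array of day 7 (adjusted p = 0.0949), or without the trend (adjusted p = 0.0795). The other 5 genes were not called, with differences from −0.20 for Nos3 to 0.14 for Slc7a1.

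**Figure D3:**
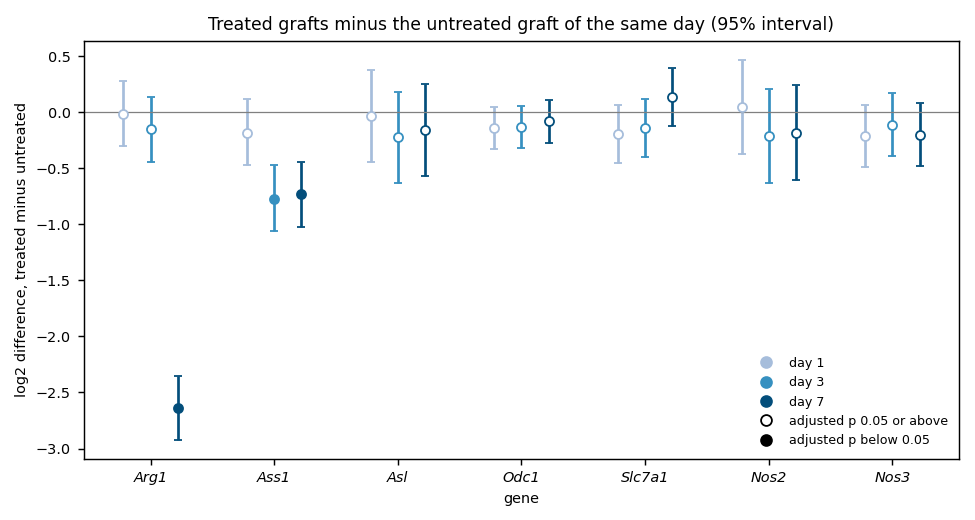
Log2 difference between the mean of the 2 treated grafts and the untreated graft on days 1, 3 and 7, for the 7 genes tested in heart; bars are 95% intervals of the limma fit. Arg1 is near 0 on days 1 and 3 and at −2.64 on day 7, and Ass1 is at −0.77 and −0.73 on days 3 and 7.

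Whether the day 7 difference exceeds that of the earlier days was tested directly, in a contrast added after the values had been seen. For Arg1 the treated-pair difference on day 7 minus the mean of days 1 and 3 was −2.56 ± 0.15 (adjusted p = 0.00155), against a background of 1.3%, 1.01% higher and 0.289% lower. Without the trend it was not called (adjusted p = 0.0667). For Ass1 it was −0.26 ± 0.16 (adjusted p = 0.557), so its treated-pair difference was not shown to change with time.

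The macrophage markers were close in the 3 day 7 grafts. Their sum was 61952 units in the untreated graft, 59221 with cyclosporine and 60533 with cyclosporine plus peptide. In the treated pair 1 of 9 macrophage markers was lower on day 7 (Cd14, −0.42 ± 0.07), with a median of −0.01. Of the 6 other genes listed for alternative activation, 5 had a probe set, and Mrc1 among them is also on the macrophage list. These 5 summed to 3330, 3514 and 3703 units on day 7, with 0 of 5 called. An unadjusted p below 0.05 was reached by 1 of 5, against 3466 of 19737 probe sets. Neutrophil markers, whose cells carry arginase in some species, summed to 3268 units in the untreated day 7 graft, the lowest of the 9 heart arrays. They summed to 4629 with cyclosporine and 6079 with cyclosporine plus peptide on day 7, and to 12614 and 13661 in the untreated grafts of days 1 and 3. T cell markers summed to 15010 units in the untreated day 7 graft against 19208 and 18825. Single markers of other cells were higher in the treated pair on day 7: cardiomyocyte Myh6 (1.14 ± 0.10), Hbb of red cells (1.02 ± 0.14) and endothelial Kdr (0.55 ± 0.09). The whole cardiomyocyte list summed to 47050 units untreated, 55562 with cyclosporine and 52899 with cyclosporine plus peptide. Erythroid sums were 7216 untreated against 13731 and 15457, and endothelial sums 3861 against 5299 and 5061. The part of these cells in the Arg1 difference was not tested.

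**Figure D4:**
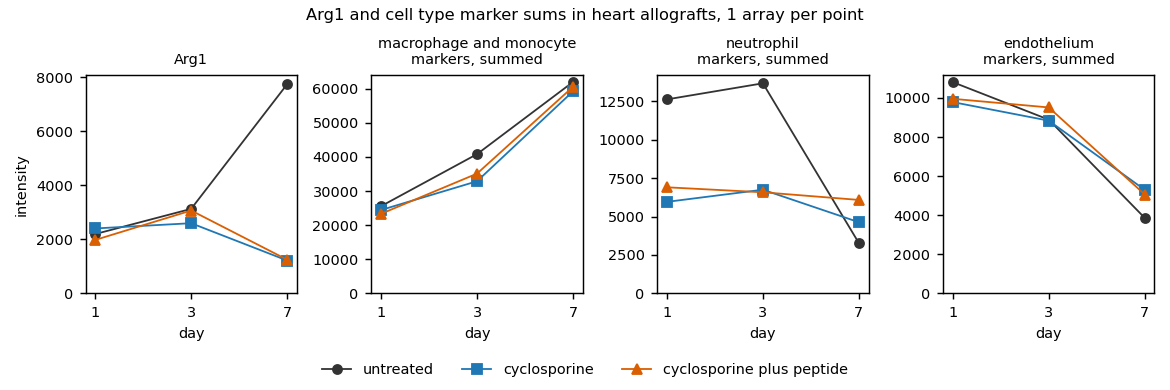
Arg1 intensity in each of the 9 heart arrays beside the summed intensity of macrophage, neutrophil and endothelial markers (linear axes), by treatment and day. On day 7 the macrophage sums lie between 59221 and 61952 while Arg1 is 7743 in the untreated graft and 1217 and 1247 in the treated grafts.

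In T cells the 4 genes tested (Nos2, Asl, Odc1 and Slc7a1) passed no test. Odc1 ranged from 2917 to 3850 units over 9 arrays with a median of 3166. Slc7a1 ranged from 1176 to 1694 with a median of 1486, Asl from 490 to 673 with a median of 578, and Nos2 from 150 to 204 with a median of 181. None was called in the day, treatment and treated-pair comparisons by limma. The background was 0% in these comparisons, apart from 0.575% for day 7 minus day 1 and 3.16% for the treated pair on day 1 (0.719% higher and 2.45% lower). Unadjusted p was below 0.05 for 1 of 4 in 2 of them: Asl for day 7 minus day 3 (0.31, adjusted p = 0.83) and Odc1 for the treated pair on day 3 (−0.31, adjusted p = 0.83). In these 2 comparisons 1050 and 1111 of all 19464 probe sets had an unadjusted p below 0.05. Slc7a1 was lower with cyclosporine plus peptide than without treatment once the day 1 arrays were left out (−0.32, adjusted p = 0.0315), or the cyclosporine plus peptide array of day 1 alone (−0.31, adjusted p = 0.0427).

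Arg1, Ass1, Nos3, Arg2, Nos1 and Slc7a2 did not pass the filter in T cells. Ass1 measured 186 units in the untreated day 1 array and 27.8 to 53.4 in the other 8. Arg1 was 84.2 in that array and 29.3 to 52.7 elsewhere, and Nos3 was 80.8 against 35.1 to 67.8. This is the array with the high neutrophil markers. Its B cell markers summed to 20888 units against 6143 to 13046 in the others, and its macrophage markers to 47169 against 24069 to 36117. The part of those cells in its Ass1, Arg1 and Nos3 values was not tested. Nos1 ranged from 98.1 to 131 units, with 1 of 9 arrays above the 40th percentile.

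Between tissues, the T cell minus heart difference was −5.34 ± 0.25 for Arg1, −3.89 ± 0.18 for Ass1 and −2.46 ± 0.07 for Nos3. These 3 passed the filter only through the heart arrays, so their differences are given as a description, with no test. Averaged over days, Asl (0.42 ± 0.06, adjusted p = 1.18e-05) and Slc7a1 (0.35 ± 0.06, adjusted p = 7.02e-05) were higher in T cells. On day 7 alone the tissues overlapped in both genes. Slc7a1 then measured 1332, 1540 and 1393 units in heart and 1478, 1417 and 1176 in T cells (untreated, cyclosporine, cyclosporine plus peptide). Asl measured 646, 568 and 586 in heart and 658, 622 and 673 in T cells. Odc1 differed by 0.11 ± 0.04 (adjusted p = 0.0187), which is less than the median of 0.15 over all probe sets and was not called in an additive fit (adjusted p = 0.125) or with arrays of the same treatment and day as a block (adjusted p = 0.181). Nos2 differed by 0.15 ± 0.07 (adjusted p = 0.0625), which did not pass. The background was 87.6%, 50.2% higher and 37.4% lower. Without the untreated day 1 T cell array the differences of Arg1 and Ass1 were −5.40 and −4.09.

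Of the 4 genes measured in both tissues, 3 differed between T cells and heart in the change from day 1 to day 7, against a background of 46.7%, 23.2% higher and 23.5% lower. The interaction, T cells minus heart, was −0.61 ± 0.14 for Asl (adjusted p = 0.00351), −0.58 ± 0.14 for Slc7a1 (adjusted p = 0.00495) and −0.26 ± 0.10 for Odc1 (adjusted p = 0.0426), so their rises in the graft exceeded the changes in T cells. For Nos2 it was −0.12 (adjusted p = 0.599). For Ass1 and Nos3, whose T cell values lay below the filter, the same quantity was −4.08 ± 0.45 and 0.52 ± 0.17, and for Arg1 −0.57 ± 0.61, given with no test because these genes passed only through the heart arrays. Without the untreated day 1 T cell array the Ass1 value was −3.47, and without the untreated day 7 heart array the interaction of Odc1 was no longer called (−0.28, adjusted p = 0.0588), nor was it under 5 other settings. By limma, 0 of the 4 genes measured in both tissues differed between tissues in the effect of cyclosporine or of cyclosporine plus peptide. The background was 0.00448% in each. For the genes that passed only through the heart arrays these differences are a description with no test. They were 0.65 and 0.72 for Arg1, −0.04 and −0.31 for Ass1, and −0.41 and −0.11 for Nos3.

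The pathway around these genes was followed with a list of 47 further genes, 41 with a probe set and 34 tested in heart. From day 1 to day 7, 12 were higher, 10 lower and 12 not called, 64.7% called as over all probe sets. Of 10 polyamine genes 5 were higher and 2 lower. Sat1, which acetylates polyamines for their breakdown or export, rose by 1.27 ± 0.07 (adjusted p = 4.83e-06). Of the other transporters, Slc7a7, a cationic amino acid exchanger, rose by 1.21 ± 0.09 (adjusted p = 1.27e-05). Vasp, a substrate of the cyclic GMP-dependent kinase that nitric oxide signalling activates, rose by 1.24 ± 0.06 (adjusted p = 3.55e-06). At the lower end stood Prodh1, the proline dehydrogenase, at −2.41 ± 0.32, Gucy1b1, a subunit of the nitric oxide receptor, at −1.01 ± 0.12, and Gchfr, which regulates GTP cyclohydrolase, at −0.87 ± 0.11.

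**Figure D5:**
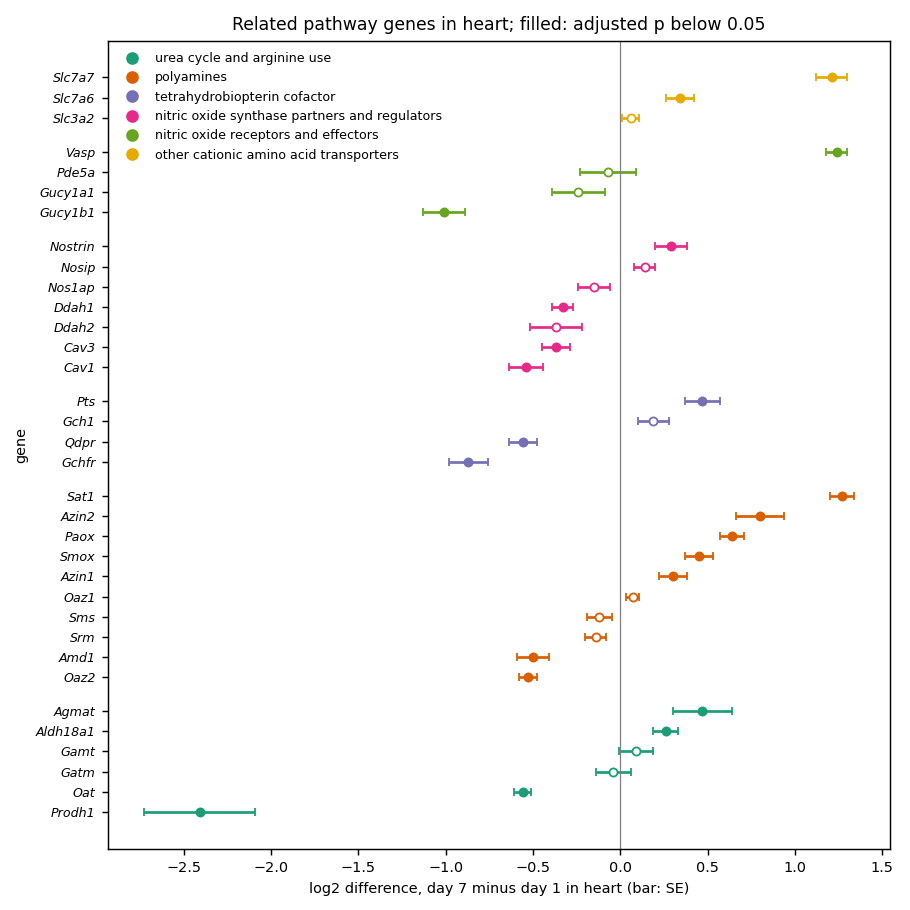
Log2 difference between days 7 and 1 in heart for the 34 pathway genes tested, grouped by role; bars are the SE of the limma fit and filled points have an adjusted p below 0.05. Sat1, Vasp and Slc7a7 lie at 1.21 to 1.27 and Prodh1 at −2.41.

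Within day 7, 5 of the 34 pathway genes differed between the treated pair and the untreated graft, 4 higher and 1 lower, 14.7% against 4.26% of all probe sets (2.87% higher and 1.39% lower). Gucy1a1, the other receptor subunit, measured 651 units in the untreated graft, 1152 with cyclosporine and 1262 with cyclosporine plus peptide, a difference of 0.87 ± 0.08 (adjusted p = 0.00186). Gucy1b1 (0.53 ± 0.11), Ddah2, which degrades methylated arginines that inhibit nitric oxide synthases (0.76 ± 0.16), and Cav1, the caveolin that binds Nos3 (0.44 ± 0.08), were also higher. Gch1, the GTP cyclohydrolase that opens synthesis of the cofactor tetrahydrobiopterin, was lower, at 826 units untreated against 550 and 551 (−0.57 ± 0.11, adjusted p = 0.0292). Of 5 endothelial markers tested, 2 were higher in the same comparison, and their part in the Gucy1a1 and Cav1 differences was not tested. On day 3, Prodh1 was higher in the treated pair by 1.57 ± 0.18 (adjusted p = 0.0132), with 181 units untreated against 577 and 562, and Cav3, the muscle caveolin, by 0.36 (adjusted p = 0.0389). The background on day 3 was 2.5%, 1.38% higher and 1.12% lower. On day 1, 0 of 34 were called (background 0%). An unadjusted p below 0.05 was then reached by 4 of 34, against 1343 of 19737 probe sets.

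In T cells 30 pathway genes were tested. For the treated pair on day 1, 5 were lower and 0 higher, led by Gch1 (−3.18 ± 0.64, adjusted p = 0.0465), which measured 979 units in the untreated array against 96.6 and 91. The background of this comparison was 3.16%, 0.719% higher and 2.45% lower. Ddah1, another enzyme that degrades methylated arginines, measured 399 against 67.5 and 131. These calls rest on the untreated day 1 T cell array with the high neutrophil markers and could not be fitted without it. In the other day, treatment and treated-pair comparisons within T cells 0 of 30 were called by limma, with 0 to 7 at an unadjusted p below 0.05. Over all probe sets, 678 to 4654 of 19464 had an unadjusted p below 0.05 in them. Their background of calls was 0%, apart from 0.575% for day 7 minus day 1.

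Likeness of pattern was measured by Pearson's r of log2 values over the 9 heart arrays against the 697 genes that passed the filter and ranged over at least 2 log2 units, as a description only. Ass1 was most like Tlr1 (r = 0.996), Cxcl16 (0.995) and Nuak2 (0.995). Nos2 was most like Cadps2 (0.940) and Cxcl11 (0.902). For Arg1 the nearest of the 697, Slc47a1, a transporter of organic cations, reached 0.644. Slc47a1 measured 1065 units in the untreated day 7 graft against 365 and 224 in the treated grafts. Among the members, Ass1 and Asl had r = 0.93 and Odc1 and Slc7a1 r = 0.91, while Arg1 had r from −0.24 to 0.26 with the others. All these values share the same 9 arrays and their 3 days of sampling.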

How the data were processed

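RNA was labelled as biotinylated cRNA with an Enzo kit, per the labels' protocols, and hybridised to Affymetrix rat arrays. The authors deposited 1 intensity per probe set and array on a linear scale; no source used here gives the software or the normalization. Of the 31099 probe sets, 57 controls were left out, 20826 carried 1 gene symbol, 436 several and 9780 none in the platform annotation. For each gene the probe set with the highest mean log2 value was used. Negative values (0.138%) were set to 0, 16 was added and log2 taken.

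Differences were fitted with limma 3.58.1 in R 4.3.3 (lmFit, eBayes with trend), with Benjamini-Hochberg adjustment over all probe sets tested and a threshold of 0.05. Treatment and day were fitted over the 9 arrays of a tissue, the treated pair by day over the same 9 arrays, and tissue with its interactions over all 18 arrays. The number of arrays limits the precision. The script was tested on simulated data. All 10 members were named whatever their values, with up to 6 pathway genes per comparison by size among those called. The members and lists were chosen with earlier results of these data known, and 56 alternative settings were tried. The refits that leave out single arrays were chosen after seeing the data.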

Additional observations from a re-analysis of the deposited data

Results flagged for a closer look

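In these arrays the difference between treated and untreated grafts in Arg1 was not the same on all days. The day 7 difference minus the mean of days 1 and 3 was −2.56. That contrast was added after the values had been seen, and its call was lost without limma's trend. It rests on the untreated day 7 array, the only untreated graft of that day. The change from day 1 to day 7 also differed between T cells and heart in 3 genes measured in both: T cells minus heart, the difference was −0.61 for Asl, −0.58 for Slc7a1 and −0.26 for Odc1. For Ass1 it was −4.08 and for Nos3 0.52. In T cells the values of Ass1 and Nos3 lay below the filter, apart from Ass1 in the untreated day 1 array, so these genes entered the test only through the heart arrays and their values are a description.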

How the results depend on the processing

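Over the alternatives, 27 called values of the 10 genes gave 439 recomputed values, of which 420 kept direction and call, 19 kept the direction only and 0 reversed. The 27 include Arg1, Ass1 and Nos3 between tissues, and Ass1 and Nos3 for the tissue difference in the change from day 1 to day 7. Those values passed the filter only through the heart arrays, so they are a description. Their share of the 420 says nothing about stability. For 111 values that were not called, 1762 recomputed values gave 11 new calls in the same direction and 2 with another sign: Arg1 from day 1 to day 7 in heart, −0.82 without the untreated arrays and −0.79 without the untreated day 7 array, in a range of −0.82 to 0.58 over arrays left out. With a linear slope on log2(day), 3 genes in place of 5 were called between days 1 and 7, Odc1 (adjusted p = 0.115) and Slc7a1 (0.0852) being lost. Without limma's trend the treated pair gave 0 calls in place of 1 on day 3 (Ass1, adjusted p = 0.124), 1 in place of 2 on day 7 (Ass1 lost, adjusted p = 0.0795) and 0 in place of 1 for day 7 against the earlier days (Arg1, adjusted p = 0.0667). Without the filter, 1 gene in place of 0 was called in T cells for the treated pair on day 1: Ass1, at −1.94 (adjusted p = 0.0163). In heart it added Nos1 (−0.38) and Slc7a2 (0.50) between days 7 and 1 and Slc7a2 (0.60) between days 7 and 3, and between tissues Nos1 (0.44) and Slc7a2 (−0.45), all 5 below the filter. Leaving out arrays gave 1 to 2 calls for day 3 minus day 1 in heart, 1 for the treated pair on day 7, and 0 to 1 for cyclosporine plus peptide minus untreated in T cells. The Odc1 interaction with tissue lost its call under 6 settings, and Nos2 between tissues gained one under quantile normalization over all arrays (0.24) and median centring (0.25), which moved the median of all probe sets to 0.22 and 0.25, and without the trend (0.15, adjusted p = 0.0395). Centring arrays on their medians turned the split of all calls from 2883 higher and 2546 lower to 2086 and 3837 for day 3 minus day 1 in heart, from 5315 and 5812 to 6027 and 5063 for day 7 minus day 3, from 272 and 221 to 440 and 180 for the treated pair on day 3, and in T cells from 85 and 27 to 132 and 70 for day 7 minus day 1 and from 140 and 476 to 210 and 416 for the treated pair on day 1. The call of Nos3 between days 3 and 7 was lost without the cyclosporine plus peptide arrays (−0.26, adjusted p = 0.075). The cause of these changes was not tested. The labels give no replicate number that pairs arrays and do not tie heart and T cell arrays to the same animal. With the heart and T cell arrays of the same treatment and day as a block, an alternative added after seeing the data, 5 in place of 6 genes were called between tissues, Odc1 being lost (adjusted p = 0.181). Both counts include Arg1, Ass1 and Nos3, which passed the filter only through the heart arrays. The depth limit here is signal: Arg2, Nos1 and Slc7a2 lay below the filter in heart.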

Other observations

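From day 1 to day 3 in the graft, 5 of 34 pathway genes were higher and 2 lower, 20.6% called against 27.5% of all probe sets, and 6 of 10 polyamine genes were not called. Sat1, Paox and Smox, enzymes of polyamine breakdown, were higher, by 0.52, 0.23 and 0.32, and so was the exchanger Slc7a7, by 0.58. Aldh18a1, which makes the proline and ornithine precursor from glutamate, was higher by 0.36 and Azin1, the antizyme inhibitor that stabilises ornithine decarboxylase, lower by −0.28. Between tissues 11 of 36 pathway genes were higher in T cells and 16 lower, 75% called against 87.6% of all probe sets (50.2% higher and 37.4% lower). Fewer of these genes passed the filter in T cells alone, so some entered this fit through the heart arrays. The counts and the differences that follow are therefore a description. The lower ones were led by the caveolins Cav3 (−5.70) and Cav1 (−5.33), followed by Ddah2 (−3.57) and Prodh1 (−3.09).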
